A study of Mus musculus with 2 samples.

Results

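Described here are 10 of the 31053 genes counted, the lipid-associated macrophage genes Apoe, Lpl, Trem2, Gpnmb, Spp1, Fabp4, Fabp5, Plin2, Abca1 and Abcg1. They were taken by name as the commonly used marker set of macrophages that handle lipid, and their raw counts of unique molecular identifiers (UMIs, which mark single captured RNA molecules) were read in every cell of both libraries. The cells came from subcutaneous tumours formed by a syngeneic fibrosarcoma (a tumour of connective-tissue cells) in wild-type C57BL/6 mice, dissociated with collagenase B and DNase I, cleared of erythrocytes by lysis and profiled by droplet-based 3′ single-cell RNA sequencing. There were 2 libraries, one titled Control and one titled Blood, and the labels compare tumours injected with erythrocytes with tumours injected with PBS. The treatment labels go against the titles: the library titled Control is labelled as erythrocyte injected and the library titled Blood as PBS injected. The libraries are therefore named by title, and no difference is attributed to the injection. Since each title had 1 library, there was no replicate and no test. All intervals are exact 95% intervals for counting error only (Poisson for a level, conditional binomial for a ratio), and the number of animals behind each library is not given in the sources used here.

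Macrophages that take up lipoproteins, dying cells or cell debris break the lipid down in lysosomes and then store it in droplets, burn it or export it. TREM2 is a surface receptor that senses lipids and lipoproteins, APOE among them, and in atherosclerotic plaque, obese adipose tissue and tumours the macrophages that carry it often express the other genes of the set. Free cholesterol is turned into oxysterols that activate the liver X receptors (LXR), which switch on the efflux pumps ABCA1 and ABCG1 and the acceptor APOE and so tie export to uptake.

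Each library held about the same number of UMIs, 115272096 in the Control-titled library and 115066023 in the Blood-titled library, over 8823 and 11341 cells kept, so a cell was read less deeply in the second (median 9245 and 6577 UMIs). Macrophage-like cells, named from C1qa, Csf1r, Adgre1 and 6 other markers that do not include the 10 genes, made up 5605 cells (63.5%) and 6028 cells (53.2%), with median depths of 13386 and 12250.5 UMIs. Levels are in CPM, a gene's summed counts over all UMIs of the same cells on the usual CPM scale. On it C1qa, a defining gene, was 4645 and 4270 CPM in macrophage-like cells, and 7 adipocyte markers summed to 1.15 and 0.374 CPM. Altogether 349 cell barcodes occurred in both libraries, and 110 and 211 kept cells held under 10% of the UMIs that the same barcode held in the other library. These small copies were 5 and 16 of the macrophage-like cells but 13 of 68 and 21 of 53 of the osteoclast-like cells, so osteoclast-like values are given with and without them. Macrophage-like cells gave 3 of the genes at least 1.5-fold higher in the Blood-titled library and 0 lower. These numbers stayed the same without all shared barcodes and without the small copies alone. Among mesenchymal-like cells 84 of 102 and 47 of 54 had a shared barcode, and 0 of them were small copies. The part of shared barcodes in other classes was not tested beyond the values given.

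Lipid-associated macrophage genes did not share 1 pattern across cell classes. Apoe and Trem2 were highest in macrophage-like cells, Lpl in osteoclast-like cells, Fabp5 in migratory dendritic cell (DC)-like cells, Fabp4 in non-classical monocyte-like cells, Spp1 in mesenchymal-like and neutrophil-like cells, Plin2 in neutrophil-like cells, Abca1 in macrophage-like cells and Abcg1 in neutrophil-like and non-classical monocyte-like cells. The heat map of the 10 genes gives each level.

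**Figure D1:**
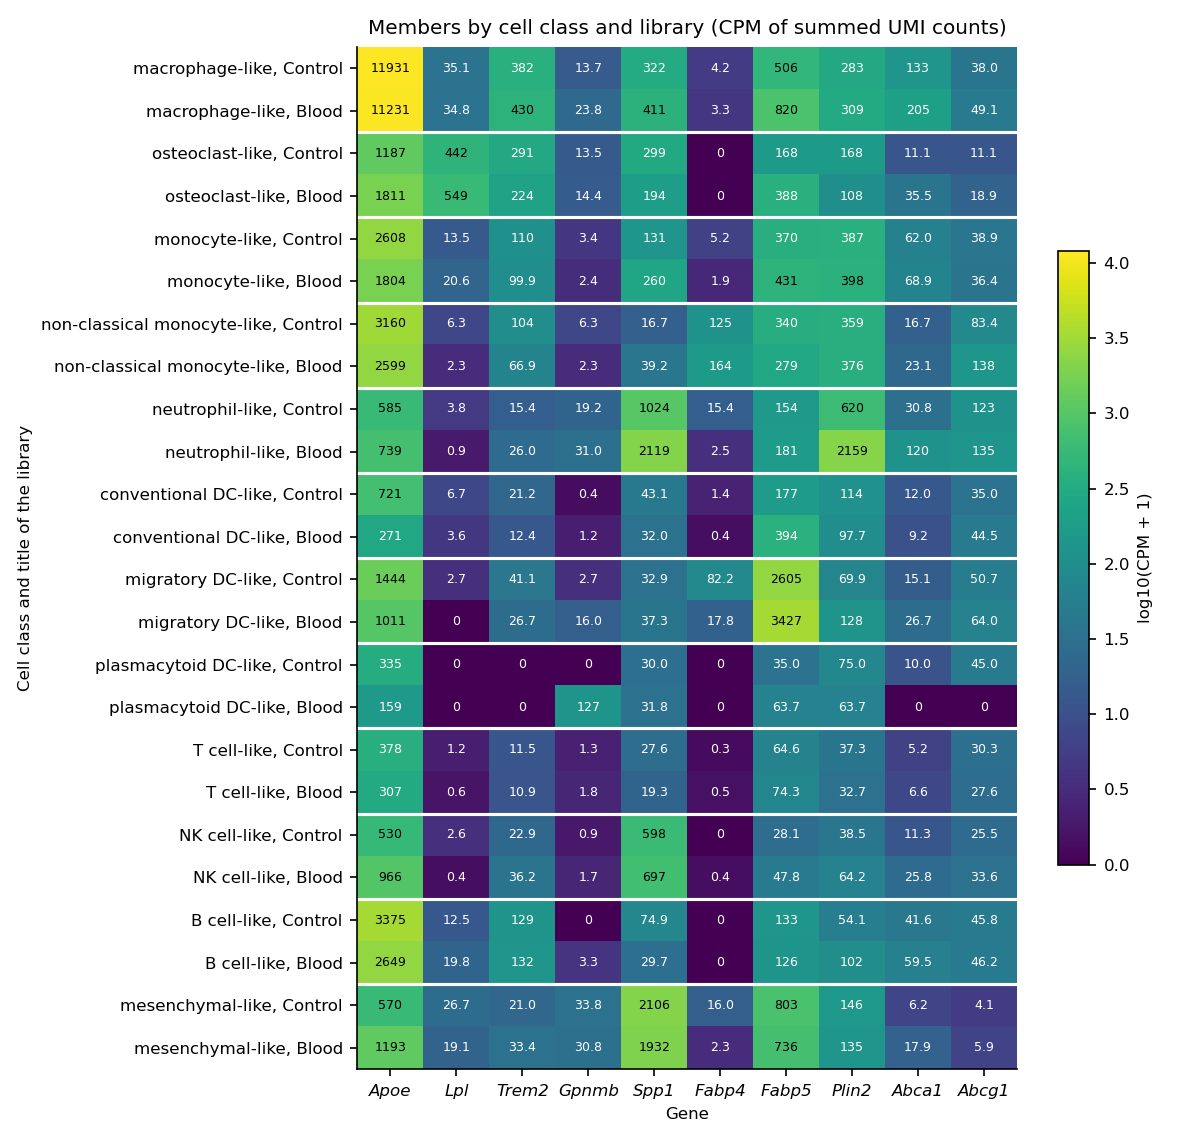
Level of the 10 genes (columns) in each named cell class of each library (rows), as CPM of summed UMI counts printed in the cells and coloured by log10(CPM + 1). Apoe is brightest in both macrophage-like rows (11931 and 11231 CPM), and Lpl in both osteoclast-like rows (442 and 549 CPM).

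Apoe encodes a lipoprotein component that carries cholesterol and binds TREM2. It reached 11931 CPM in macrophage-like cells of the Control-titled library and 11231 CPM in those of the Blood-titled library. Non-classical monocyte-like cells held 3160 and 2599 CPM, and monocyte-like cells less in each library, at 2608 and 1804 CPM. Both classes lay well under the macrophage-like values. B cell-like cells stood at 3375 and 2649 CPM, and there 1 cell held 42.5% of all Apoe counts in the Control-titled library and 27.7% in the Blood-titled library. The same B cell-like cells held C1qa at 1419 and 780 CPM, and the part of macrophage RNA in this value was not tested. T cell-like cells, which should lack Apoe, held 378 and 307 CPM with C1qa at 93.4 and 67.8 CPM, so the levels of conventional DC-like cells (721 and 271 CPM) are read as close to background.

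Apoe was also the most widespread of the 10 genes. It was detected in 99.5% and 98.7% of macrophage-like cells, and in 95.9% and 95.1% once each cell was thinned to 2000 UMIs. T cell-like cells of the same thinned depth gave 48.6% and 44.0% (79.1% and 75.5% before thinning), a share read as the background of Apoe RNA in cells that should lack it.

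Trem2, the lipid-sensing receptor, was concentrated in macrophage-like cells at 382 and 430 CPM and in osteoclast-like cells at 291 and 224 CPM. Osteoclasts are the bone-resorbing relatives of macrophages, and the osteoclast-like cells held Ctsk at 7528 and 8533 CPM. Monocyte-like cells held less Trem2, at 110 and 99.9 CPM, and non-classical monocyte-like cells 104 and 66.9 CPM. The counting intervals of the 2 monocyte classes overlapped in each library. Trem2 was near its T cell-like level (11.5 and 10.9 CPM) in conventional DC-like cells, at 21.2 and 12.4 CPM. After thinning, 45.7% and 49.4% of macrophage-like cells held a Trem2 UMI, against 1.81% and 1.99% of T cell-like cells.

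Lpl encodes lipoprotein lipase, the enzyme that frees fatty acids from lipoprotein triglyceride. Among the named classes it was highest in osteoclast-like cells. The level there was 442 CPM (411 to 475) in the Control-titled library and 549 CPM (501 to 599) in the Blood-titled library. Macrophage-like cells as a whole held 35.1 and 34.8 CPM, and the next class, mesenchymal-like cells, 26.7 and 19.1 CPM. Some macrophage-like cells held far more: cluster 12, described below, stood at 284 and 240 CPM. Its sub-cluster 12f (31 and 33 cells) stood at 815 and 196 CPM, above the osteoclast-like level in the Control-titled library. Without the small copies the osteoclast-like level was 442 and 554 CPM, in 55 and 32 cells. The level was spread over cells: the top cell held 7.56% and 14.98% of the Lpl counts, and 55 of 68 and 32 of 53 osteoclast-like cells held at least 1 Lpl UMI. T cell-like cells held 1.20 and 0.636 CPM.

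Osteoclast-like cells held the other 9 genes below macrophage-like levels, by differing amounts. Gpnmb and Spp1 came near those levels in the Control-titled library only. Gpnmb was 13.5 and 14.4 CPM against 13.7 and 23.8 CPM in macrophage-like cells, Spp1 299 and 194 CPM against 322 and 411 CPM, and Trem2 291 and 224 CPM against 382 and 430 CPM. Of the 13 Gpnmb counts of osteoclast-like cells in the Blood-titled library, 8 came from 1 cell. Without the top cell of each library Gpnmb was 11.6 and 5.99 CPM. Apoe was 1187 and 1811 CPM there, with 1 cell holding 24.7% of the counts in the Blood-titled library, and 1128 and 1415 CPM without the top cell of each library. Abca1 was 11.1 and 35.5 CPM and Abcg1 11.1 and 18.9 CPM, both under the macrophage-like levels of 133 and 205 CPM for Abca1 and 38.0 and 49.1 CPM for Abcg1. Fabp4 was not counted once, which allows up to 1.76 and 3.33 CPM at a floor of 3 counts. Macrophage markers summed to 2241 and 2326 CPM in osteoclast-like cells, against 15504 and 14738 CPM in macrophage-like cells. Without the small copies Apoe was 1172 and 1808 CPM, Trem2 293 and 225 CPM, Gpnmb 13.6 and 14.7 CPM, Spp1 299 and 195 CPM, Plin2 169 and 107 CPM, Abca1 11.2 and 36.2 CPM and Abcg1 11.2 and 19.2 CPM in osteoclast-like cells.

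Fabp4 and Fabp5 encode cytosolic chaperones that carry fatty acids inside the cell, and they lie close together on mouse chromosome 3 (chr3:10204088-10208576 and chr3:10012548-10016607, build GRCm38). They were highest in different cell classes, although non-classical monocyte-like cells held both, with Fabp5 at 340 and 279 CPM. Fabp5 was highest in migratory DC-like cells, at 2605 and 3427 CPM, then in mesenchymal-like cells at 803 and 736 CPM and macrophage-like cells at 506 and 820 CPM, whose ranges overlap. Fabp4 was under 10 CPM in macrophage-like cells of both libraries (4.17 and 3.34 CPM, 353 and 277 counts) and was therefore not counted as measured there. Non-classical monocyte-like cells held 125 CPM of Fabp4 (95.4 to 161) and 164 CPM (128 to 207). The 60 and 71 counts came from 19 of 87 and 25 of 85 cells, and the top 5 cells held 61.7% and 50.7%. Without the top cell of each library the level was 91.0 and 136 CPM. Non-classical monocytes patrol the vessel wall, and the cells like them lay far above the Fabp4 level of monocyte-like cells (5.16 and 1.89 CPM).

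Outside the named classes, Fabp4 was highest in cluster 17, 162 and 164 cells left without a name at their low UMI count. The mesenchymal list scored best there (1.112). Leading genes included Col4a1, Cavin1 and Cd34, and against other classes Col1a1 and Col3a1. Fabp4 stood at 1002 and 589 CPM in cluster 17, but 817 and 337 counts came from only 11 and 4 cells. The top cell alone held 33.0% and 79.8% of them. The 60 and 10 Fabp4 counts of migratory DC-like cells were also held by few cells, 6 and 5.

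Plin2 encodes perilipin 2, the coat protein of lipid droplets, and is widely used to read how much lipid a cell stores. Neutrophil-like cells held it at 620 CPM in the Control-titled library (129 cells, 161 counts) and at 2159 CPM in the Blood-titled library (1771 cells, 6901 counts). Monocyte-like cells stood at 387 and 398 CPM, non-classical monocyte-like cells at 359 and 376 CPM and macrophage-like cells at 283 and 309 CPM. The counting intervals of the 2 monocyte classes overlapped in both libraries. T cell-like cells held 37.3 and 32.7 CPM. Neutrophil-like cells were shallow, with median UMI counts of 1962 and 1746.

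Abca1 and Abcg1 are the cholesterol efflux pumps, ABCA1 loading lipid-poor apolipoproteins and ABCG1 loading formed lipoprotein particles. Abca1 was a macrophage-like gene at 133 and 205 CPM, above monocyte-like cells at 62.0 and 68.9 CPM. Neutrophil-like cells of the Blood-titled library reached 120 CPM, from 382 counts, and those of the Control-titled library 30.8 CPM, from 8 counts. Abcg1 had another order, with 123 and 135 CPM in neutrophil-like cells and 83.4 and 138 CPM in non-classical monocyte-like cells, whose ranges overlap. Macrophage-like cells (38.0 and 49.1 CPM) and monocyte-like cells (38.9 and 36.4 CPM) were close in the Control-titled library. In the Blood-titled library macrophage-like cells held more. T cell-like cells held Abcg1 at 30.3 and 27.6 CPM. After thinning, 6.61% and 5.26% of them held a UMI, against 8.03% and 9.74% of macrophage-like cells. The macrophage-like level of Abcg1 was thus only a little above the T cell-like one. For Trem2 the T cell-like level was much further down, at 11.5 and 10.9 CPM against 382 and 430 CPM. The source of the T cell-like Abcg1 level was not tested.

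Spp1 encodes osteopontin, a secreted matrix protein made by tumour cells, bone cells and macrophages. Mesenchymal-like cells held 2106 and 1932 CPM and neutrophil-like cells 1024 and 2119 CPM, ranges that overlap. Natural killer (NK) cell-like cells stood at 598 and 697 CPM and macrophage-like cells at 322 and 411 CPM. The T cell-like level of 27.6 and 19.3 CPM was far lower than that of NK cell-like cells. In NK cell-like cells the top cell held 14.98% and 17.5% of the Spp1 counts.

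Gpnmb encodes a transmembrane glycoprotein of lysosomes and melanosomes. It was low in every class: 13.7 and 23.8 CPM in macrophage-like cells, 33.8 and 30.8 CPM in mesenchymal-like cells and 13.5 and 14.4 CPM in osteoclast-like cells. Plasmacytoid DC-like cells of the Blood-titled library gave 127 CPM from 4 counts in 1 of 4 cells, which is no level of a class. Gpnmb was detected in 5.96% and 10.0% of macrophage-like cells, in 1.78% and 4.06% after thinning, and in 0.453% and 0.284% of thinned T cell-like cells.

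Within the macrophage-like cells, 10 clusters were compared, built with the 10 genes left out of the clustering. Cluster 0 was led by Dpep2, Vegfa and Fn1, cluster 1 by Ccl8, Folr2 and Vcam1, cluster 2 by Tlr12 and the antigen-presentation genes H2-Eb1 and Cd74, cluster 4 by the cell cycle genes Mki67 and Top2a, and cluster 5 by the interferon-induced genes Ifit3 and Rsad2. Cluster 6 was led by the scavenger receptor gene Cd36, the heme-degrading enzyme gene Hmox1 and Mmp12, and cluster 12 by Retnla, Ednrb, Lyve1 and Cd163. Clusters 7.3, 7.4 and 7.5 had Cxcl9, a chemokine gene induced by interferon gamma, among their leading genes. Since correlated genes drive clusters, the differences between clusters are a description with no test.

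**Figure D2:**
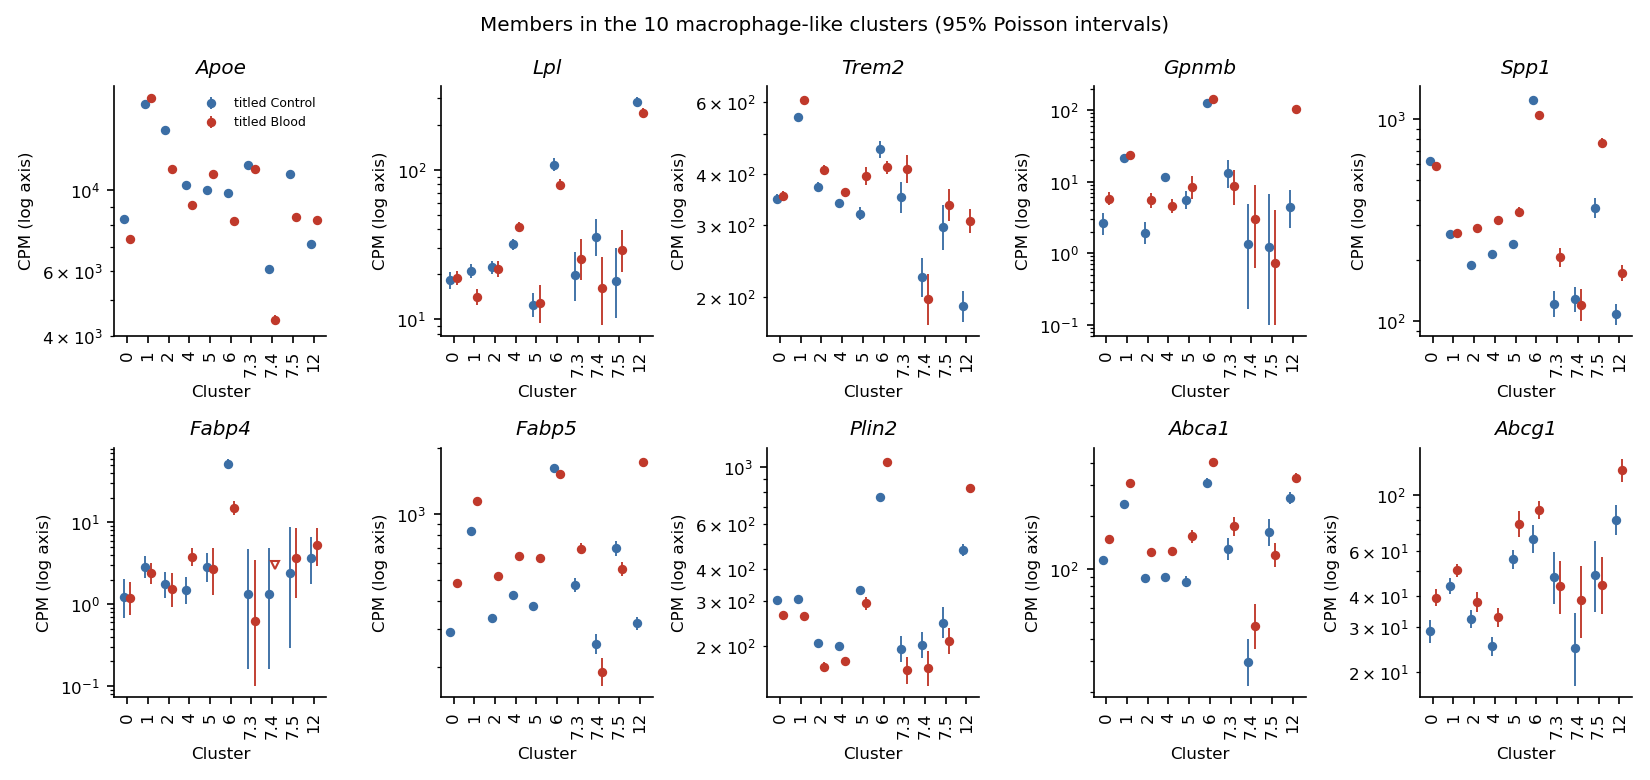
Level of each of the 10 genes (panels) in the 10 macrophage-like clusters (x axis), in CPM on a log axis, for the Control-titled (blue) and Blood-titled (red) libraries, with exact 95% Poisson intervals as bars. Interval bounds under 0.1 CPM are drawn at 0.1, and the open triangle marks the floor of 3 counts for a cluster with 0 counts; cluster 6 is the top point for Gpnmb, Spp1, Fabp4, Plin2 and Abca1 in both libraries.

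Cluster 6 carried the highest levels of Gpnmb, Spp1, Fabp4, Plin2 and Abca1 in both libraries. Gpnmb reached 124 CPM (112 to 136) and 141 CPM (132 to 151) there, while 8 of the other 9 clusters stayed under 25 CPM in both libraries. Spp1 stood at 1248 and 1045 CPM in cluster 6; the next was cluster 0 in the Control-titled library (619 CPM) and cluster 7.5 in the Blood-titled library (765 CPM). Plin2 was 763 and 1050 CPM and Abca1 308 and 405 CPM. Fabp5 was 1622 and 1521 CPM, the highest cluster in the Control-titled library but under cluster 12 (1737 CPM) in the Blood-titled one. Fabp4 was 51.9 CPM (191 counts in 44 cells) and 15.01 CPM (96 counts in 42 cells), and no other macrophage-like cluster passed 6 CPM. The cluster's own leading genes were at 4609 and 3069 CPM (Hmox1) and 392.5 and 287 CPM (Cd36), and Gpnmb itself stood among its 10 leading genes although it was not used to build the clusters. Cluster 6 was 317 of the macrophage-like cells in the Control-titled library (5.66%) and 742 in the Blood-titled library (12.3%). Its name was a close call: the macrophage score was 0.691 and the neutrophil score 0.332, a lead just past the limit used. All 9 macrophage markers were detected, with C1qa at 2559 and 2144 CPM, but none was among its leading genes against other classes. Mmp8, on the neutrophil marker list, was among its leading genes. The part of neutrophil RNA in the levels of cluster 6 was not tested.

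Apoe, its receptor and the lipase were placed differently. Apoe and Trem2 were highest in cluster 1, at 17111 and 17791 CPM for Apoe and at 551 and 605 CPM for Trem2, while cluster 6 held 9817 and 8204 CPM of Apoe and 459 and 415 CPM of Trem2. Cluster 1 also held Fabp5 at 836 and 1150 CPM and Abca1 at 232 and 306 CPM, but little Gpnmb (21.2 and 23.2 CPM) and little Lpl (21.1 and 14.1 CPM). Lpl was highest in cluster 12, at 284 CPM (265 to 305) and 240 CPM (223 to 259), then in cluster 6 at 108 and 79.4 CPM. Abcg1 was highest in cluster 12 as well, at 79.8 and 126 CPM, with cluster 6 lower in each library, at 67.4 and 87.2 CPM. Cluster 7.4, led by Cxcl9, Gbp2b and Ciita, was the lowest for Apoe (6096 and 4423 CPM), Abca1 (29.6 and 47.4 CPM) and Fabp5 (256 and 190 CPM).

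Genes differed in how far their levels ranged over the 10 clusters, taken as the ratio of the highest to the lowest cluster on the mean of both libraries. No fold is given for Gpnmb and Fabp4, whose lowest clusters held 2 counts or fewer in each library. Lpl ranged 20.7-fold, Abca1 9.26-fold, Spp1 9.19-fold, Fabp5 7.03-fold and Plin2 5.08-fold. The most even genes were Abcg1 (3.54-fold), Apoe (3.32-fold) and Trem2 (2.75-fold).

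Promoters are shown for the 3 genes whose cluster levels peaked together in cluster 6 and in which a searched motif was found, Gpnmb, Plin2 and Abca1. They run from 250 bases before to 50 bases after the RefSeq transcript start on GRCm38.p6, and the motifs are in capitals. RefSeq promoters were matched for 6 of the 10 genes (9 promoters).

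Gpnmb promoter, chr6:49036268-49036567, plus strand: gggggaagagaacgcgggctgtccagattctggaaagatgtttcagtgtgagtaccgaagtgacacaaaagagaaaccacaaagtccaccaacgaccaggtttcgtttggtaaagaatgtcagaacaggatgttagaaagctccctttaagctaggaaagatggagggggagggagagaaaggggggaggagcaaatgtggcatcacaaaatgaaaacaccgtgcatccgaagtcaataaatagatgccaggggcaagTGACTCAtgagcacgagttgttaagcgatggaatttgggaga
Plin2 promoter, chr4:86670010-86670309, minus strand: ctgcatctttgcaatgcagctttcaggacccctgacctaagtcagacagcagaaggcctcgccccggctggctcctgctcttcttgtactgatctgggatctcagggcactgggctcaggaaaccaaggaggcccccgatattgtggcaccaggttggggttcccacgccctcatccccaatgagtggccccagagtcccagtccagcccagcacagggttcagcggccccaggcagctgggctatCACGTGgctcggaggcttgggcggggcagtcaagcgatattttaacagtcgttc
Abca1 promoter, chr4:53159846-53160145, minus strand: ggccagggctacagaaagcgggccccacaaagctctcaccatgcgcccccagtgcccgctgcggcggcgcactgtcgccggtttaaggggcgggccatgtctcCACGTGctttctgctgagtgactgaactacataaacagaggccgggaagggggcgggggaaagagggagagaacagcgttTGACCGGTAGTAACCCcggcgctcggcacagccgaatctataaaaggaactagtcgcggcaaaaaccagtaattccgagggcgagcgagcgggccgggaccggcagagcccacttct

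Both strands were searched for 5 motifs. The capitals in the Gpnmb promoter are TGACTCA, the letters bound by AP-1 factors, at bases 259 to 265 of the window, letters that 5.202% of 32851 RefSeq promoters hold. The capitals in the Plin2 promoter, at bases 247 to 252, are CACGTG, an E-box of the kind bound by MITF and TFEB factors, held by 7.15% of promoters. The Abca1 promoter holds CACGTG at bases 104 to 109 and, at bases 184 to 199, a match to a loose form of DR4, the element bound by LXR. The loose form was held by 0.621% of promoters and had been loosened so as to take in the known Abca1 site, so its match there is no finding. Exact DR4 (AGGTCA repeated after 4 bases; 0.0152% of promoters) and TGACNNNGC, the core of the antioxidant response element (12.4%), had no match in the promoters of the 10 genes that were held. A match is a run of letters and not a measured binding site.

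Cluster 12 was not alike in the 2 libraries. Fabp5 was 317 CPM in the Control-titled library and 1737 CPM in the Blood-titled library, a ratio of 5.47 (5.09 to 5.89). Gpnmb was 4.37 CPM from 12 counts and 105 CPM from 301 counts, a ratio of 24.0 (13.6 to 47.0). Plin2 was 476 and 827 CPM, Trem2 189 and 307 CPM, Spp1 108 and 173 CPM and Abcg1 79.8 and 126 CPM, each at least 1.5-fold higher in the Blood-titled library, while Lpl was 284 and 240 CPM. Of 9 measured genes of the set, 6 were thus higher and none lower by that fold, where 5.99% of 7917 measured genes were higher in this cluster and 9.25% lower. Genes outside the set differed too, with Retnla, a marker of alternative activation, at 3637 and 438 CPM, C1qa at 3557 and 1722 CPM and Hmox1 at 1085 and 2135 CPM.

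Because its libraries had been seen to differ, cluster 12 was split once more, into 7 sub-clusters. The libraries filled these unevenly, which describes the difference already seen and is no separate finding. Sub-clusters 12c (22 and 100 cells) and 12d (11 and 104 cells) held most of the Blood-titled library's Fabp5 and Gpnmb (128 and 145 of its 301 Gpnmb counts), with Fabp5 at 2581 and 3093 CPM and Gpnmb at 165 and 199 CPM in that library. In the Control-titled library the same sub-clusters stood at 1004 and 352 CPM of Fabp5 from few cells. Of the 3 sub-clusters with similar numbers of cells, 12a (91 and 84 cells) had similar Fabp5 (413 and 384 CPM) but more Spp1 (56.3 and 217 CPM) and Trem2 (143 and 236 CPM) in the Blood-titled library. Sub-cluster 12b (75 and 70 cells) differed in Fabp5 (147 and 909 CPM), in Gpnmb (0 and 18 counts) and in Hmox1 (905 and 1661 CPM). Sub-cluster 12f (31 and 33 cells) differed in Lpl, at 815 and 196 CPM, beside Retnla at 10463 and 2899 CPM. The last, 12g, held 26 cells of the Control-titled library and none of the Blood-titled library. The libraries thus differed both in how they filled the sub-clusters and in levels within those filled alike, and what each adds to the ratios of cluster 12 was not tested.

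**Figure D3:**
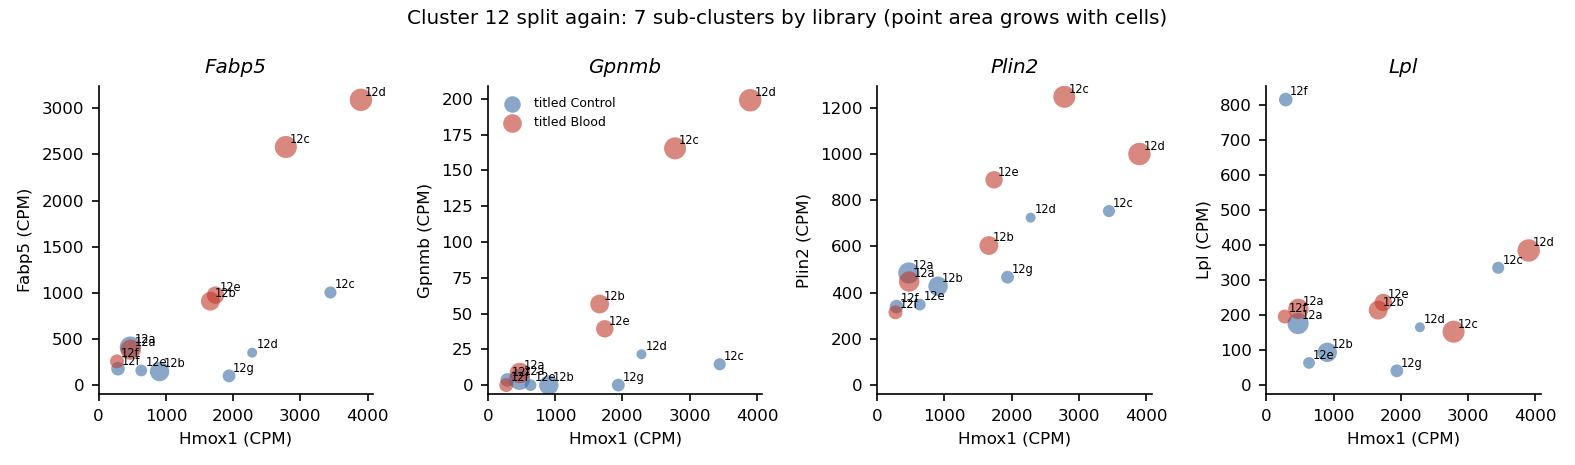
Sub-clusters 12a to 12g of macrophage-like cluster 12, each plotted by its Hmox1 level (x axis, CPM) and its level of Fabp5, Gpnmb, Plin2 or Lpl (y axis, CPM), for the Control-titled (blue) and Blood-titled (red) libraries, with point area growing with the number of cells. The red points 12c and 12d (100 and 104 cells) stand high for Hmox1, Fabp5 and Gpnmb, while the blue points of the same sub-clusters hold 22 and 11 cells.

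Pairs of the 10 genes were set against each other over the 20 points given by 10 clusters and 2 libraries, and across single cells within each library. The points share cells of the same libraries and depth, so these values are descriptions. Fabp5 and Abca1 moved most closely together over clusters, with Pearson's r = 0.84 on log2(CPM + 5), followed by Gpnmb with Fabp5 (0.83), Apoe with Trem2 (0.81), Gpnmb with Plin2 (0.81) and Plin2 with Abcg1 (0.78). Apoe and Lpl were opposed at −0.30 and Lpl and Trem2 at −0.29. Across single cells, Apoe and Trem2 had the highest Spearman's rho of the pairs named, 0.47 and 0.56, while Gpnmb and Plin2 reached only 0.12 and 0.17 in counts with many zeros.

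**Figure D4:**
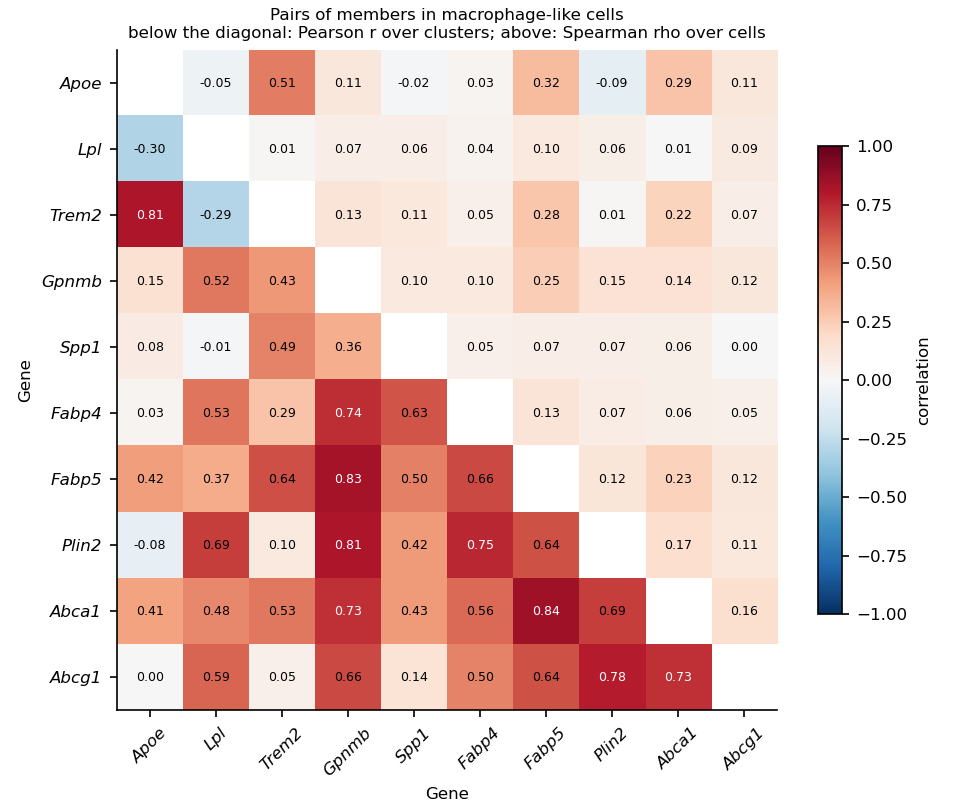
Correlation of each pair of the 10 genes, with Pearson's r of log2(CPM + 5) over the 20 points of macrophage-like clusters and libraries below the diagonal, and Spearman's rho over single macrophage-like cells (mean of the libraries) above it. Apoe pairs with Trem2 (r = 0.81), and Gpnmb pairs with Fabp5 and Plin2 (0.83 and 0.81), while the values over single cells are lower.

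Outside the set, 5 of 4055 genes were named for the pattern most like the mean of the 10 genes over the same 20 points. These were the endosomal adaptor gene Appl2 (r = 0.944), the lysosomal cathepsin genes Ctsl (0.943) and Ctsd (0.934), Atp6v1c1 (0.936), which encodes a subunit of the proton pump that acidifies lysosomes, and Fnip2 (0.930), which encodes a partner of folliculin. Gpnmb was most like Fnip2 (0.95), Atp6v1c1 (0.95) and the iron exporter gene Slc40a1 (0.94). Fabp5 was most like Npc1 (0.93), which moves cholesterol out of the lysosome, Atp6v1c1 (0.92) and Adipor1 (0.90). Plin2 was most like Ftl1-ps1 (0.97), a ferritin pseudogene whose reads may come from its parent gene, Ostf1 (0.96) and Hmox1 (0.95). Fabp4 was most like the antioxidant genes Prdx1 (0.94), Srxn1 (0.92) and Gclm (0.92).

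The other 5 genes had other neighbours. Apoe was most like Ang (0.92), Ms4a7 (0.91) and Sash1 (0.87), and Trem2 like Abcc3 (0.95), Syngr1 (0.93) and Cd93 (0.91). Lpl was most like Ednrb (0.93), Capn2 (0.90) and Lyz1 (0.87), of which Ednrb and Lyz1 stood among the leading genes of cluster 12. Spp1 was most like Fbxo32 (0.90), the arginase gene Arg1 (0.89) and Rnf149 (0.86). Abca1 was most like Pitpnc1 (0.96), Emp1 (0.95) and the platelet factor 4 gene Pf4 (0.94), and Abcg1 like Atp6v1b2 (0.92), Sdcbp (0.89) and Rab8b (0.88).

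At a depth thinned to 2000 UMIs, few single cells held many of the 10 genes at once. The median macrophage-like cell then held 3 of them in each library, with means of 2.80 and 3.22. Thinning lowers these numbers: before it, Abca1 was held by 3354 of 5605 and 4305 of 6028 macrophage-like cells. Cells with 6 or more were 2.43% of macrophage-like cells in the Control-titled library and 4.99% in the Blood-titled library. In cluster 6 these shares were 16.1% and 17.2%, in cluster 1 4.40% and 6.16% and in cluster 12 2.92% and 14.7%. The median T cell-like cell held 1 of the genes. The 10 genes together took a median 1.03% and 1.05% of a macrophage-like cell's UMIs, 1.62% and 1.82% in cluster 1, and 0.0429% and 0.0408% in T cell-like cells.

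Between the libraries, macrophage-like cells of the Blood-titled library held more Fabp5, Abca1 and Gpnmb and about the same Apoe and Lpl. Fabp5 was 506 CPM in the Control-titled library and 820 CPM in the Blood-titled library, from 42831 and 67973 counts, a ratio of 1.62 (1.60 to 1.64). Abca1 was 133 and 205 CPM, a ratio of 1.54 (1.51 to 1.58). Gpnmb was 13.7 CPM (12.97 to 14.6) and 23.8 CPM (22.7 to 24.9), which gives a ratio of 1.73 (1.61 to 1.86), and 1 cell of the Control-titled library held 139 of the 1163 counts. These 3 genes were the ones at least 1.5-fold higher, and none was 1.5-fold lower. Of 7770 genes measured in these cells, 0.785% were that much higher and 1.17% that much lower, where measured means 10 or more CPM in at least 1 library and 10 or more counts in both together.

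Other genes of the set differed less. Abcg1 was 38.0 and 49.1 CPM, a ratio of 1.29 (1.23 to 1.35), and Spp1 322 and 411 CPM, a ratio of 1.28 (1.26 to 1.30). Trem2 was 382 and 430 CPM, a ratio of 1.13 (1.11 to 1.14), and Plin2 283 and 309 CPM, a ratio of 1.09 (1.07 to 1.11). Lpl had a ratio of 0.992 (0.942 to 1.04) and Apoe, the gene with the most counts, 0.941 (0.939 to 0.944). These intervals are narrow because they hold counting error alone, and the spread between tumours is unknown. The median difference of the 9 measured genes was 0.33 on the log2(CPM + 5) scale, with 7 above 0 and 2 below, against 0.01 over all measured genes.

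**Figure D5:**
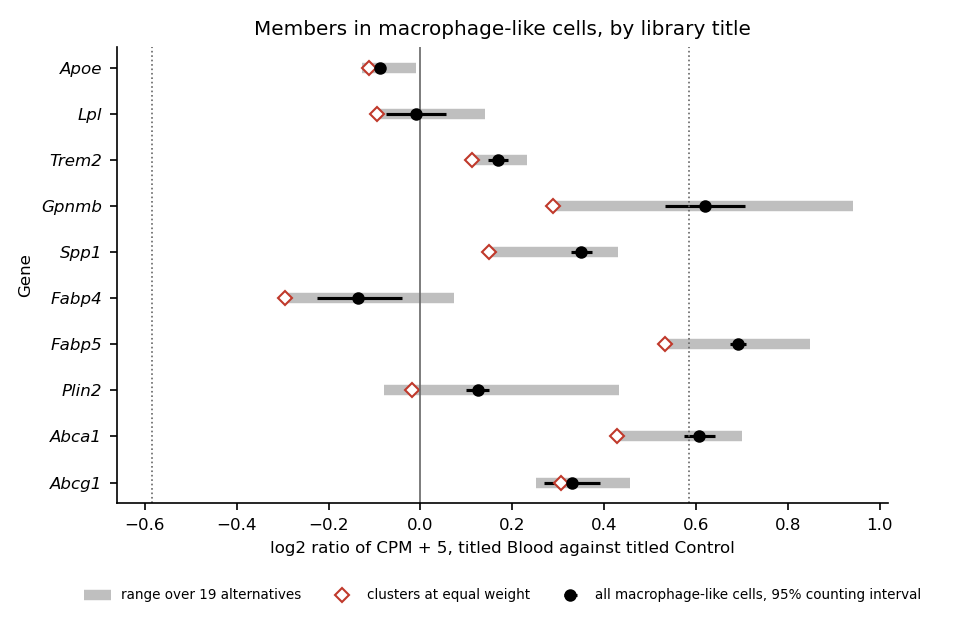
Difference between the libraries for each of the 10 genes in macrophage-like cells, as log2(CPM + 5) in the Blood-titled library minus that in the Control-titled library. Black points and bars give all macrophage-like cells with the exact 95% counting interval, open diamonds the clusters at equal weight, grey bars the range over 19 other ways of processing and dotted lines 1.5-fold: Fabp5 (0.69), Gpnmb (0.62) and Abca1 (0.61) stand past the dotted line, and their diamonds (0.53, 0.29 and 0.43) do not.

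The make-up of the macrophage-like cells differed between the libraries beside these genes. Clusters 2, 0 and 1 were 21.5%, 19.7% and 15.6% in the Control-titled library, while clusters 0, 1 and 2 were 23.4%, 20.9% and 15.3% in the Blood-titled library, and the interferon-gene cluster 5 was 13.5% and 5.06%. With each cluster given equal weight in both libraries, Fabp5 differed by 0.53, Abca1 by 0.43 and Gpnmb by 0.29 (log2), and none of the 9 measured genes was 1.5-fold apart. Fabp4, under 10 CPM, was 5.01 and 3.16 CPM at equal weight. Without cluster 12 Gpnmb differed by 0.44 and was no longer 1.5-fold apart. Within clusters, Abca1 was higher in the Blood-titled library in 9 of 10 clusters, Trem2 and Abcg1 in 8, Fabp5, Gpnmb and Spp1 in 7, Lpl in 5, Apoe and Fabp4 in 3 and Plin2 in 2. Fabp5, for example, was 290 and 486 CPM in cluster 0, 335 and 522 CPM in cluster 2, 427 and 646 CPM in cluster 4 and 382 and 630 CPM in cluster 5, but 1622 and 1521 CPM in cluster 6.

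Plin2 and Gpnmb show how far a pooled value can stand from its parts. Plin2 was higher in the Blood-titled library only in clusters 6 and 12, and lower in the other 8. In cluster 4, Gpnmb was 11.5 CPM from 232 counts in the Control-titled library and 4.59 CPM from 74 counts in the Blood-titled library, opposite to the pooled direction, and 139 of the 232 counts came from 1 cell. Without the top cell of each library it was 4.63 and 3.92 CPM. After thinning, the shares of macrophage-like cells with a UMI differed in the same direction as the levels for Fabp5 (37.6% and 52.6%), Abca1 (21.6% and 32.1%), Spp1 (24.0% and 32.0%) and Gpnmb (1.78% and 4.06%), with 162 and 318 shallower cells left out. T cell-like cells gave 8.24% and 10.0% for Fabp5, 1.09% and 1.56% for Abca1 and 4.08% and 4.33% for Spp1.

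Other classes held fewer cells, and their differences are given with the background of the same class. In monocyte-like cells Spp1 (131 and 260 CPM) and Lpl (13.5 and 20.6 CPM) were at least 1.5-fold higher in the Blood-titled library and none of 8 measured genes was lower, where 2.27% of all measured genes were higher and 3.82% lower. Of the 1097 Spp1 counts of that library 381 came from 1 cell, and of the 87 Lpl counts 35. Without the top cell of each library Spp1 was 96.0 and 169.8 CPM, and Lpl was 10.6 and 12.3 CPM, no longer 1.5-fold apart. In osteoclast-like cells Fabp5 (168 and 388 CPM), Abca1 (11.1 and 35.5 CPM, 19 and 32 counts), Abcg1 (11.1 and 18.9 CPM, 19 and 17 counts) and Apoe were higher, and Spp1 (299 and 194 CPM) and Plin2 (168 and 108 CPM) lower, with 11.7% of all genes higher and 8.05% lower. Apoe was no longer 1.5-fold apart there without the top cell of each library. Without the small copies Fabp5 was 166 and 393 CPM in osteoclast-like cells. Conventional DC-like cells held more Fabp5 (177 and 394 CPM) and less Apoe (721 and 271 CPM) and Trem2 in the Blood-titled library, against 4.80% of genes higher and 3.49% lower, and C1qa moved with Apoe there, at 281 and 104 CPM. The part of macrophage RNA in these Apoe and Trem2 values was not tested.

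In neutrophil-like cells 6 of 9 measured genes passed 1.5-fold, from few counts in the Control-titled library. Plin2 had a ratio of 3.48 (2.98 to 4.10), Abca1 3.88 (1.95 to 9.05) and Spp1 2.07 (1.83 to 2.35). Trem2 and Gpnmb were also at least 1.5-fold higher, with 4 and 5 counts in the Control-titled library. Their ratio intervals, 0.634 to 6.33 and 0.667 to 5.06, held 1. Fabp4 was lower at 15.4 and 2.50 CPM, with 4 and 8 counts. Without the top cell of each library it was 7.84 and 1.88 CPM, under the 10 CPM of a measured gene. A share of 24.9% of all measured genes was as much higher in these cells and 18.0% as much lower, and 129 cells stood against 1771. In mesenchymal-like cells Apoe (570 and 1193 CPM), Trem2 (20.98 and 33.4 CPM) and Abca1 (6.22 and 17.9 CPM) were higher and Fabp4 (16.00 and 2.34 CPM) lower, against 2.76% and 3.39% of all genes. Of the 90 Fabp4 counts of the Control-titled library 77 came from 1 cell, and without the top cell of each library Fabp4 was 2.32 and 1.53 CPM, under the 10 CPM of a measured gene, and Trem2 was 17.8 and 25.8 CPM, no longer 1.5-fold apart. C1qa stood at 214 and 340 CPM in the same mesenchymal-like cells, 1 cell held 18.7% and 20.9% of their Apoe counts, and the part of macrophage RNA in these values was not tested.

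Genes of the same pathways outside the set are read against all measured genes of macrophage-like cells, of which 0.785% were 1.5-fold higher and 1.17% lower, with a median log2 difference of 0.01. Of 20 further cholesterol efflux and LXR target genes, 16 were measured, 1 was at least 1.5-fold higher in the Blood-titled library and none lower, with a median log2 difference of 0.03. The higher one was Scd2, a fatty acid desaturase gene, at 49.1 and 81.6 CPM, and Pltp, the phospholipid transfer protein gene, went the other way at 148 and 105 CPM. Of 15 uptake genes, 10 were measured and 1 was higher, the fatty acid transporter gene Slc27a1 at 37.8 and 58.9 CPM. The scavenger receptor gene Msr1 was 429 and 523 CPM, and the list median was 0.15.

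None of the 12 measured of 22 lipid droplet genes passed 1.5-fold, and their median was 0.04. Among the unmeasured ones G0s2, which encodes an inhibitor of the droplet lipase and is also on the neutrophil marker list, was 1.52 and 8.83 CPM (named after its values were seen). Hilpda, which encodes an inhibitor of droplet lipolysis, was 128 and 174 CPM overall and 666 and 717 CPM in cluster 6. None of 12 measured of 17 genes of the PPAR axis and fatty acid oxidation passed it either (median 0.03), nor did any of 20 measured of 23 further genes of the TREM2 pathway and lipid-associated signature (median 0.04). In the latter list Lgals3, the galectin-3 gene, was 1417 and 1841 CPM and Ctsl, the cathepsin L gene, 832 and 1031 CPM, and both were high in cluster 6, at 3812 and 4104 CPM and at 2047 and 2369 CPM.

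Markers of other cells in the macrophage-like class are given beside these differences. Neutrophil markers summed to 91.5 and 184 CPM over 8 genes, osteoclast markers to 450 and 453 CPM and monocyte markers to 687 and 535 CPM. The mesenchymal list summed to 575 and 796 CPM, of which Fn1, which macrophages express as well, made up 547 and 780 CPM. Adipocytes, the other well-known source of Fabp4, Lpl and Plin2, were nearly unseen by their markers: Lep was at 0 in both libraries, which allows up to 0.0355 and 0.0362 CPM, and Adipoq, Cidec and Plin1 were at 0 in the Blood-titled library. Erythroid markers summed to 0.319 and 0.591 CPM. The part of neutrophil RNA in the macrophage-like values was not tested.

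In the annotation (GENCODE M21), the other 8 genes lie at chr7:19696109-19699188 (Apoe), chr8:68880491-68907448 (Lpl), chr17:48346401-48354147 (Trem2), chr6:49036546-49070929 (Gpnmb), chr5:104435118-104441050 (Spp1), chr4:86648386-86670060 (Plin2), chr4:53030787-53159895 (Abca1) and chr17:31057675-31117988 (Abcg1) on GRCm38. None of them had another transcript that matched the last 400 bases at 95% identity or more over at least 100 bases, so counts should not be split with a near copy. The annotated genes Gm42793, at Spp1, and Gm25447, inside Abcg1, overlap them and were not among the 31053 genes counted.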

How the data were processed

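The authors deposited raw counts of UMIs per gene and barcode. The submitters' processing notes name Cell Ranger 3.1.0 and the mm10 build, and the setting that called barcodes is not given in the sources used here. Samples were grouped by title. Cells were kept from 300 genes and 500 UMIs upwards where mitochondrial genes took 20% of UMIs or less. Doublets were called by simulation and left out (162 and 276 cells). These were 1.80% and 2.38% of cells, under the 7.19% and 9.29% expected at the rate used, so doublets may remain. The libraries were clustered together (scanpy 1.11.5, leidenalg 0.10.2; 2000 variable genes without the 10 genes, 30 components, 15 neighbours, resolution 1, mixed clusters split at 0.5). Clusters were named "X-like" from marker lists when the score reached 0.5 and led by 0.35, with 3 or more markers detected. These limits were set after the clusters had been seen, and names may differ from those the study used. Counts were summed per class or cluster and library and scaled to CPM of all UMIs there. A gene was measured with 10 or more CPM in at least 1 library and 10 or more counts in both together. Differences used log2(CPM + 5), and calls used a 1.5-fold ratio of CPM; the ratio step was tested on simulated data. The members and lists were chosen with earlier results of these data known. All 10 genes were named, with the 3 genes most like each, the 5 most like their mean and up to 3 genes of each of 5 related lists with the largest difference. Altogether 14 other settings, and 5 more chosen after seeing the data, were run. Sequence searches used blastn 2.17.0.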

Additional observations from a re-analysis of the deposited data

How the results depend on the processing

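The median difference of the measured genes in macrophage-like cells was 0.330 (log2, library titled Blood minus library titled Control), with 3 genes at least 1.5-fold higher and 0 lower. With each cluster at equal weight in both libraries it was 0.148 and 0 genes were 1.5-fold higher. It was 0.432 as a mean of per-cell CPM, 0.252 with a pseudocount of 20 CPM, 0.250 with no low-count filter (which brings in Fabp4) and 0.260 with a filter at 50 CPM (which leaves 6 genes). The other 14 alternatives gave medians from 0.288 to 0.354 with 2 or 3 genes higher, and 0 measured genes were 1.5-fold lower in any of the 19; Fabp4, under the filter, was 5.01 and 3.16 CPM with clusters at equal weight. The cause of the move at equal weight was not tested beyond the cluster shares. The direction of Apoe, Trem2, Gpnmb, Spp1, Fabp5, Abca1 and Abcg1 was the same in all 19 alternatives; Lpl and Plin2 kept theirs in 13 and Fabp4 in 15. Fabp5 was past 1.5-fold in 18 of 19, Abca1 in 17 and Gpnmb in 15. The changed pseudocounts and low-count filters could not alter a single gene's direction or its 1.5-fold call. Their share of these agreements was therefore fixed beforehand. No paired analysis was possible because each title had 1 library. Depth limits Fabp4 and Gpnmb most, both under 25 CPM in macrophage-like cells, and the neutrophil-like cells of the library titled Control.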
